A study of Mus musculus with 6 samples.

Results

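The sulfatases are enzymes that remove sulfate groups from glycosaminoglycans, glycolipids and other molecules, and transcripts of 9 of them were examined in healing flexor tendons. The genes were *Arsa*, *Arsb*, *Arsi*, *Arsj* and *Arsk* (arylsulfatases), *Sulf1* and *Sulf2* (extracellular endosulfatases) and *Ids* and *Sgsh* (lysosomal sulfatases). They were picked by symbol from 53819 listed genes, and *Arsj* was selected on its higher counts in the same comparison, so its values are given as a description without a test. All 9 genes were listed, and all 9 were among the 17496 genes that passed a filter on low counts.

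RNA was sequenced from flexor digitorum longus (FDL) tendons, which flex the digits of the hind paw, of 3 DTR and 3 WT mice, with 1 tendon per library. DTR mice (Scx-Cre+; DTR F/+) expressed the diphtheria toxin receptor in cells of the *Scleraxis* (*Scx*) lineage after Cre removed a stop cassette from the *Rosa* locus, and WT mice (Scx-Cre-; DTR F/+) carried the same floxed allele without Cre. Mice of both groups were 10 to 12 weeks old at transection and repair of the tendon, received 5 daily injections of 100 ng diphtheria toxin from D14 to D18 post-surgery, and were harvested at D28 post-surgery (the sample titles count these days from depletion). Since the Cre was active in every cell with a history of *Scx* expression, the receptor marked a lineage and not a cell type, and how many cells of the lineage were present at harvest is not measured by these libraries. In bulk tendon, a larger number of cells that express a gene and more transcript per cell cannot be told apart.

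Sulfatases act only after a cysteine in the active site has been converted to formylglycine in the endoplasmic reticulum, a step carried out by the product of *Sumf1*. In the lysosome, arylsulfatase B (*Arsb*) removes sulfate from dermatan and chondroitin sulfate, iduronate-2-sulfatase (*Ids*), N-sulfoglucosamine sulfohydrolase (*Sgsh*) and arylsulfatase K (*Arsk*) act on glycosaminoglycan chains such as heparan sulfate, and arylsulfatase A (*Arsa*) acts on the glycolipid sulfatide. *Sulf1* and *Sulf2* encode enzymes that are secreted or held at the cell surface, where they remove 6-O-sulfates from heparan sulfate and thereby change how growth factors bind to it. *Arsi* and *Arsj* encode relatives of arylsulfatase B whose natural substrates are not settled. Tendon matrix is rich in dermatan and chondroitin sulfate proteoglycans such as decorin and biglycan.

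A short signature that the sulfatases share is visible in the coding sequences. These are shown for 8 of the genes as 45 bases around the codons of the active site. They are read 5′ to 3′ from GENCODE vM21 transcripts (GRCm38), with the 15 bases that encode the signature in capitals.
Arsj: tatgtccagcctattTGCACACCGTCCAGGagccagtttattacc
Arsb: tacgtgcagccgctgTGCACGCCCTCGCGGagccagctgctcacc
Arsa: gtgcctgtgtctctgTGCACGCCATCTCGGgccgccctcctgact
Arsk: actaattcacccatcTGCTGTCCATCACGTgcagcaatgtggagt
Sulf1: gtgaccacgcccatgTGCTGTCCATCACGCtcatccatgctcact
Sulf2: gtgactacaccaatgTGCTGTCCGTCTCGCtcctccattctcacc
Ids: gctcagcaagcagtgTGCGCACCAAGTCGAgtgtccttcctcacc
Sgsh: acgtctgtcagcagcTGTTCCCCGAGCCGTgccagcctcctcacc

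The signature is a cysteine, any residue, a proline, any residue and an arginine, and the leading codon in capitals is that of the cysteine. All 9 genes held it in frame, compared with 4.44% of 21599 coding genes, so the pattern alone does not define a sulfatase. *Arsb* and *Arsi* held 2 matches each, and the first was used. The *Arsj* stretch lies in exon 1 at chr3:126365116-126365160 on the plus strand, where the signature begins at codon 120 of 598. In *Arsa* (chr15:89475347-89475536, minus strand) and *Arsb* (chr13:93772036-93772080, plus strand) it encodes the same 5 residues as in *Arsj*, with 4 differing bases in each, and the same held for *Arsi* on chromosome 18, with 3 differing bases. The encoded signature was not identical to that of *Arsj* in *Arsk* (chr13:76091807-76093921, minus strand), *Sulf1* (chr1:12796837-12796881, plus strand), *Sulf2* (chr2:166116996-166117040, minus strand), *Ids* (chrX:70363116-70363807, minus strand) and *Sgsh* (chr11:119352658-119352702, minus strand). The stretches of *Arsa*, *Arsk* and *Ids* cross an intron, so their coordinates span exons 2 and 3. Over whole coding sequences, *Arsi* was the closest relative of *Arsj*, with 60.2% identical aligned positions, followed by *Arsb* with 54.1%, and *Sulf1* and *Sulf2* were the closest pair of the 9 with 65.9%.

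The sulfatases differed widely in level when counts were divided by exon length. In CPM, counts scaled by library size and TMM factor, per kilobase of exon, *Sulf2* was the highest in WT tendons with 57.6 ± 3.43 (SD, n = 3). *Sulf1* had 25.4 ± 1.77 and *Ids* 24.2 ± 1.64 CPM per kilobase in WT (SD, n = 3 each), and their WT libraries overlapped, so these neighbours in the order were not separated. *Arsa* (11.6 ± 0.268) and *Arsb* (11.5 ± 0.407) overlapped in the same way in WT on this scale. Lower WT levels per kilobase were found for *Arsi* with 9.01 ± 1.36, *Sgsh* with 6.81 ± 0.33 and *Arsk* with 4.52 ± 0.124 (SD, n = 3 each), each separated from its neighbours without overlap. *Arsj* was the lowest of the 9 in WT with 2.32 ± 0.272 CPM per kilobase, below every WT library of *Arsk*. In DTR tendons *Arsj* had 4.52 ± 0.392 CPM per kilobase (SD, n = 3), and its libraries lay within the range of *Arsk* there (3.99 to 6.23). *Arsb* and *Arsi*, at 15.5 ± 2.08 and 14.7 ± 2.65 CPM per kilobase in DTR, had higher means there than *Arsa* at 13.9 ± 2.36, and the 3 genes overlapped.

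**Figure D1:**
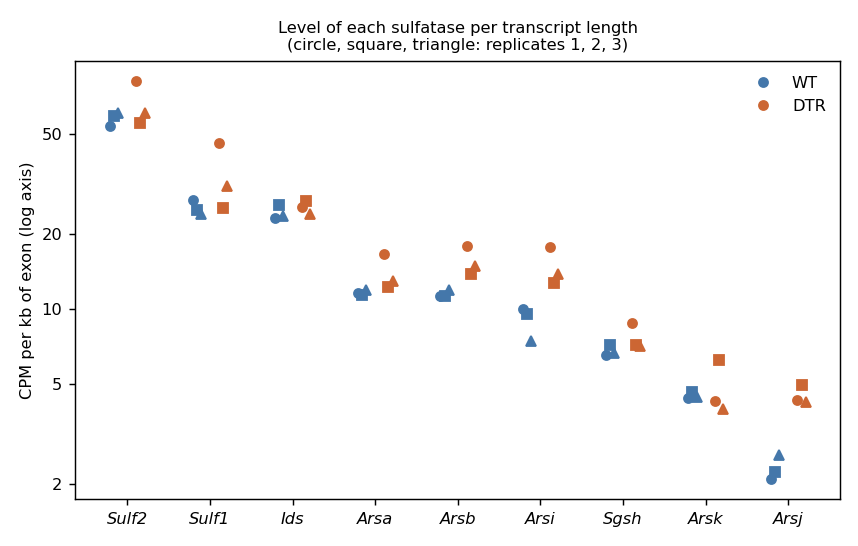
Level of each sulfatase in CPM per kilobase of exon on a log axis, for 3 WT (blue) and 3 DTR (orange) libraries, with genes in the order of their WT means. *Sulf2* stands highest at 57.6 and *Arsj* lowest at 2.32 in WT, and in DTR *Arsj* reaches the level of *Arsk*.

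The comparison of DTR with WT tendons asked which transcripts differed after depletion of *Scx*-lineage cells. The largest log2 fold changes of the 9 belonged to *Arsj*, *Arsi* and *Arsb*, the group of related arylsulfatases, with fitted folds of 1.95, 1.64 and 1.35. *Sulf1* was close behind *Arsb*, with log2 fold changes of 0.42 and 0.44, and it was above *Arsb* when WT replicate 1, DTR replicate 2 or DTR replicate 3 was left out (0.48 against 0.42, 0.60 against 0.52 and 0.49 against 0.47). *Arsj* was chosen for its rise and is not counted, and none of the other 8 passed the quasi-likelihood test of edgeR after adjustment over the whole table. *Sulf1* and *Sulf2* overlapped between the groups, as did *Arsk*, *Ids* and *Sgsh*. The median log2 fold change over the 9 genes was 0.27, and over the 8 without *Arsj* it was 0.23, beside a median of 0.0082 over all 17496 tested genes.

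Counts of *Arsj*, scaled by TMM to the mean library size and called normalized counts here, were 372, 396 and 465 in the WT libraries and 769, 881 and 754 in the DTR libraries, each in the order of replicates 1 to 3, as for all genes that follow. The lowest DTR library was well above the highest WT library, and the replicates of each group lay close together. The means were 411 ± 48.2 in WT and 801 ± 69.4 in DTR (SD, n = 3 each), and on the log2 scale DTR exceeded WT by 0.96 (standard error, SE, 0.13). Relative to the WT mean, the log2 differences of *Arsj* were 0.91, 1.11 and 0.88 in DTR replicates 1 to 3. An antisense gene, *Gm17225*, shares 212 exon bases with *Arsj*, and it had no more than 3 counts in any library.

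*Arsi*, the closest relative of *Arsj*, showed 1363, 1309 and 1019 normalized counts across the WT libraries and 2424, 1738 and 1877 across the DTR libraries. Each DTR library was above each WT library, with the lowest WT value in replicate 3. The log2 fold change was 0.71 (SE 0.16, 95% interval 0.34 to 1.08), and the adjusted p was 0.277 by the quasi-likelihood test of edgeR and 0.00739 by DESeq2. *Arsb*, which encodes the lysosomal enzyme for dermatan and chondroitin 4-sulfate, showed 3111, 3115 and 3308 normalized counts across the WT libraries and 4948, 3833 and 4128 across the DTR libraries. Its groups did not overlap either, and DTR replicate 1 was the highest library. The log2 fold change of *Arsb* was 0.44 (SE 0.11, 95% interval 0.19 to 0.69), and the adjusted p was 0.307 in edgeR and 0.0435 in DESeq2. *Arsb* shares 463 exon bases with the antisense gene *Gm47210*, which had at most 13 counts in a library, and 32.3% of its exon bases with *Gm26527*, another antisense gene, which was not analysed here.

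*Arsa*, whose product breaks down sulfatide, was narrowly separated between the groups. It showed 1958, 1914 and 2005 normalized counts across the WT libraries and 2811, 2071 and 2185 across the DTR libraries, so that DTR replicate 2 stood only just above WT replicate 3. The log2 fold change was 0.27 (SE 0.12, 95% interval -0.019 to 0.55, edgeR adjusted p = 0.473). The antisense gene *C230037L18Rik* covers 18.8% of the exon bases of *Arsa* and had 39 to 54 counts per library. *Arsk*, a lysosomal sulfatase of glucuronate residues, showed 1198, 1261 and 1210 normalized counts across the WT libraries and 1158, 1686 and 1080 across the DTR libraries. DTR replicate 2 was above WT and the other DTR libraries below it, and the log2 fold change was 0.10 (SE 0.17, 95% interval -0.29 to 0.49, edgeR adjusted p = 0.860), or -0.13 without DTR replicate 2.

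The endosulfatases were the most abundant of the 9 in counts, and their mean difference rested mainly on DTR replicate 1. *Sulf1* showed 14170, 12914 and 12378 normalized counts across the WT libraries and 23744, 13096 and 16045 across the DTR libraries. DTR replicate 2 lay within the WT range, while the other DTR libraries were above it. The log2 fold change of *Sulf1* was 0.42 (SE 0.21, 95% interval -0.075 to 0.92, edgeR adjusted p = 0.495), and 0.14 without DTR replicate 1. *Sulf2* showed 14480, 15811 and 16254 normalized counts across the WT libraries and 21945, 14952 and 16320 across the DTR libraries. Again DTR replicate 1 was far above the rest and DTR replicate 2 within the WT range. The log2 fold change of *Sulf2* was 0.19 (SE 0.16, 95% interval -0.17 to 0.56, edgeR adjusted p = 0.654), and 0.0071 without DTR replicate 1. The ratio of *Sulf1* to *Sulf2* in CPM per kilobase was 0.509, 0.425 and 0.396 in WT and 0.562, 0.455 and 0.511 in DTR replicates 1 to 3, so the balance of the pair overlapped between the groups. *Sulf2* shares 154 exon bases, or 2.62% of its exons, with *Ncoa3* on the opposite strand.

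*Ids* showed 5399, 6103 and 5480 normalized counts across the WT libraries and 5998, 6333 and 5632 across the DTR libraries, and its groups overlapped (log2 fold change 0.08, SE 0.089, 95% interval -0.12 to 0.29, edgeR adjusted p = 0.754). The gene is on the X chromosome, and mice of both sexes were used. *Xist*, which is transcribed from the inactive X chromosome, had between 46425 and 55574 normalized counts in WT replicate 2 and in DTR replicates 2 and 3 and no more than 4.1 elsewhere. The highest *Ids* value of each group was in replicate 2, and the part of sex in this was not tested. *Xist* was high in more DTR than WT libraries, so sex was not balanced between the groups. Sex was not a term of any fit, and its part in the values of the other genes was not tested either. *Sgsh*, which acts on N-sulfated glucosamine of heparan sulfate, showed 1331, 1456 and 1352 normalized counts across the WT libraries and 1789, 1449 and 1447 across the DTR libraries. DTR replicate 1 alone was above the WT range (log2 fold change 0.18, SE 0.11, 95% interval -0.073 to 0.43, edgeR adjusted p = 0.553). The opposite strand gene *Card14* covers 21.6% of the exon bases of *Sgsh* and had 430 to 797 counts in WT and 273 to 287 in DTR libraries. Whether counting used strand is not given in the sources used here, and reads of the overlapping pairs may not be separated.

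**Figure D2:**
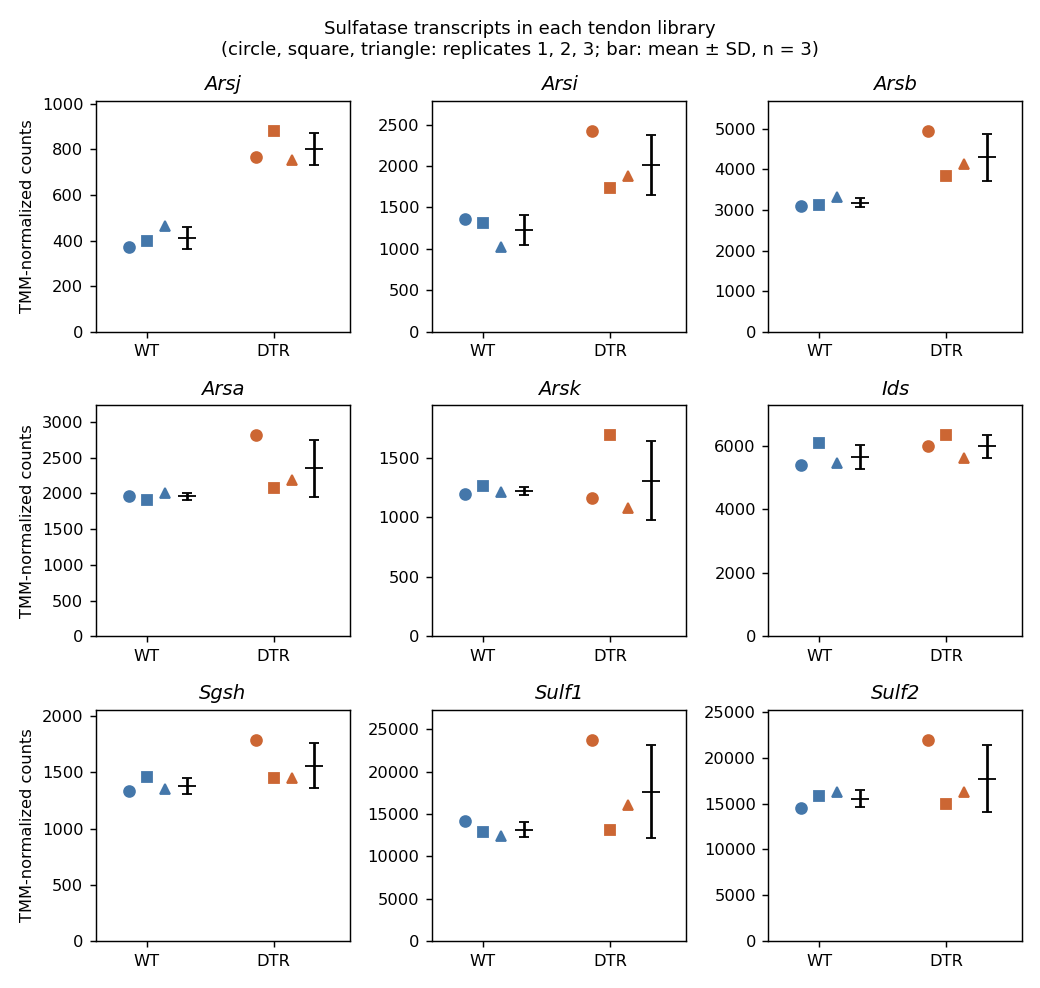
TMM-normalized counts of the 9 sulfatases (y axes, each from 0) in WT (blue) and DTR (orange) libraries, with replicates 1 to 3 as circle, square and triangle and the mean ± SD (n = 3) beside them. *Arsj*, *Arsi*, *Arsb* and *Arsa* show no overlap between groups, and DTR replicate 1 is the highest library for *Sulf1* at 23744 and *Sulf2* at 21945.

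Counted over the genes, 0 of the 8 sulfatases other than *Arsj* reached an adjusted p of 0.05 by quasi-likelihood in edgeR, where 0 of the 17496 tested genes (0%) did and the lowest value of any gene was 0.199. Before adjustment, at p under 0.05, *Arsi* and *Arsb* were higher (2 of 8) and none was lower, while 5.52% of all tested genes were higher and 5.45% lower. DESeq2's Wald test called the same 2 of the 8 higher at an adjusted p under 0.05, compared with 1.12% of 17564 genes called higher and 1.53% called lower, and limma-voom called 0 genes. Each DTR library was above each WT library for 3 of the 8 (*Arsi*, *Arsb* and *Arsa*) and below for 0, beside 8.96% and 7.85% of all tested genes. *Arsj* was also above the threshold of DESeq2 and without overlap, which follows from its choice and is not counted. When DTR replicate 2 was left out, edgeR called 544 genes, and *Arsb* was among them with an adjusted p = 0.0476. These p-values set the difference between groups against the spread between 3 tendons per group, which each tool moderates with the spread of other genes. The labels do not tell which animal each tendon came from.

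**Figure D3:**
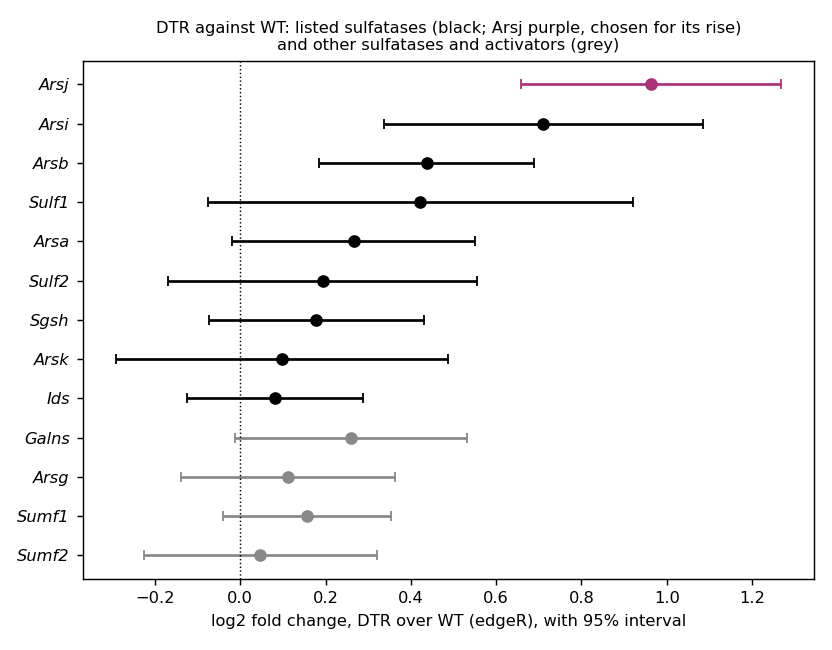
Log2 fold changes of DTR over WT with 95% intervals from edgeR's quasi-likelihood fit (n = 3 per group) for the 9 sulfatases (*Arsj* in purple, chosen for its rise, the others in black) and for other sulfatases and activators (grey). *Arsi* at 0.71 and *Arsb* at 0.44 have intervals above 0, while those of *Sulf1*, *Sulf2*, *Arsa*, *Arsk*, *Ids* and *Sgsh* include 0.

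The sulfatases were not highest in the same DTR library. In DTR replicate 1 the median log2 difference of the 9 genes from their WT means was 0.52, compared with 0.16 in DTR replicates 2 and 3 and values between -0.030 and 0.029 in the WT libraries. Without *Arsj*, chosen for its rise, the medians were 0.51 in DTR replicate 1 and 0.12 in DTR replicates 2 and 3. In the WT libraries they were then between -0.030 and 0.037. DTR replicate 1 was the highest library for 6 of the genes (*Arsa*, *Arsb*, *Arsi*, *Sulf1*, *Sulf2* and *Sgsh*), and DTR replicate 2 for the other 3 (*Arsj*, *Arsk* and *Ids*). *Arsk* was the extreme case, with 0.46 in DTR replicate 2 and -0.18 in DTR replicate 3 on the log2 scale relative to the WT mean. Without DTR replicate 1 the median log2 fold change of the 9 genes was 0.14, with values of 0.12 for *Arsa* and 0.065 for *Sgsh*. As a share of all counts, without TMM factors, the 9 genes together held 0.0946%, 0.0988% and 0.0948% in WT and 0.135%, 0.0985% and 0.113% in DTR replicates 1 to 3, so that DTR replicate 2 lay within the WT range. With TMM factors the sums were 945, 965 and 947 CPM in WT and 1429, 1003 and 1078 CPM in DTR libraries, where the groups did not overlap. The shares and sums include *Arsj*.

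Transcripts of other tissues varied over the same libraries. All 25 genes of a skeletal muscle marker list were detected in every library, and together they held 2.31% to 3.13% of the counts in WT libraries and 0.414%, 2.81% and 0.777% in DTR replicates 1 to 3. DTR replicate 1, with the least muscle transcript, was thus the library in which 6 of the 9 sulfatases were highest. With the muscle level as a covariate, the log2 fold change was 1.05 for *Arsj*, 0.50 for *Arsi* (edgeR adjusted p = 0.732), 0.24 for *Arsb* (edgeR adjusted p = 0.769) and 0.042 for *Arsa*. *Arsk* had 0.39 (SE 0.14, edgeR adjusted p = 0.704) in that fit, *Ids* 0.14 and *Sgsh* 0.036. The endosulfatases turned to -0.032 (*Sulf1*, SE 0.18) and -0.10 (*Sulf2*, SE 0.15), values smaller than their errors. Of 20 keratinocyte markers, 8 had counts in every library and 12, including *Krt5* and *Krt14*, were at 0 in some, and the list held 0.0102% to 0.372% of the counts in WT and 0.00468% to 0.0425% in DTR libraries. The 10 adipocyte markers held 0.0152% to 0.0226% in WT and 0.00912% to 0.0158% in DTR libraries, with *Lep* at 0 in some. All 10 were fitted lower, with a median log2 fold change of -2.27. Of these, 7 were without overlap, beside 7.85% of all tested genes, and DESeq2 called 5 lower, beside 1.53%. The 19 tested keratinocyte markers were also all fitted lower, with a median of -2.94 and 1 without overlap. Among all 17496 tested genes, 8479 were fitted lower. Macrophage markers, 16 genes of cells rich in lysosomes that were all detected in every library, held 0.404% to 0.493% in WT and 0.438% to 0.475% in DTR libraries, so their levels overlapped. The 10 Schwann cell markers held 0.0621% to 0.114% in WT and 0.0449% to 0.0791% in DTR libraries, and the 11 endothelial markers 0.0795% to 0.102% and 0.0826% to 0.0951%, all detected throughout. The 16 cartilage and bone markers, with *Matn1* at 0 in some libraries, held 0.0505% to 0.0617% in WT and 0.0358% to 0.0463% in DTR libraries, without overlap. Of the 14 tested, 10 were fitted lower and 4 higher. Of the Schwann cell markers 9 were fitted lower and 1 higher, and all 25 muscle genes lower. Lower without overlap were 3, 2 and 5 genes of these lists, and 1 Schwann cell gene was higher, beside 7.85% and 8.96%. DESeq2 called 1, 3 and 0 lower, and 1 Schwann cell gene higher, beside 1.53% and 1.12%. Muscle share was lower in DTR replicates 1 and 3 than in every WT library. The fit with muscle therefore cannot tell muscle and genotype apart. The part of these tissues in the sulfatase values was not tested. All 13 tendon markers were detected in every library, and they held 4.67%, 5.09% and 5.57% of the counts in WT and 6.45%, 5.25% and 6.14% in DTR replicates 1 to 3, with the highest share in DTR replicate 1. The median log2 fold change of the tendon markers was 0.30, with 10 fitted higher and 3 lower, beside 9017 of 17496 tested genes fitted higher. Of these markers, 4 were without overlap, all higher, beside 8.96% of all tested genes. DESeq2 called 1 of them higher, beside 1.12% of genes. The part of tendon markers in the sulfatase values was not tested. There were 50514 to 92219 normalized counts of *Tnmd* per library, and *Scx* was at 2656 ± 433 in WT and 3472 ± 62.4 in DTR tendons (SD, n = 3 each). Each DTR library was above each WT library for *Scx*, so its transcript was not lower in DTR at harvest. Its log2 fold change was 0.39 (SE 0.12), and neither edgeR (adjusted p = 0.371) nor DESeq2 (adjusted p = 0.143) called it.

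**Figure D4:**
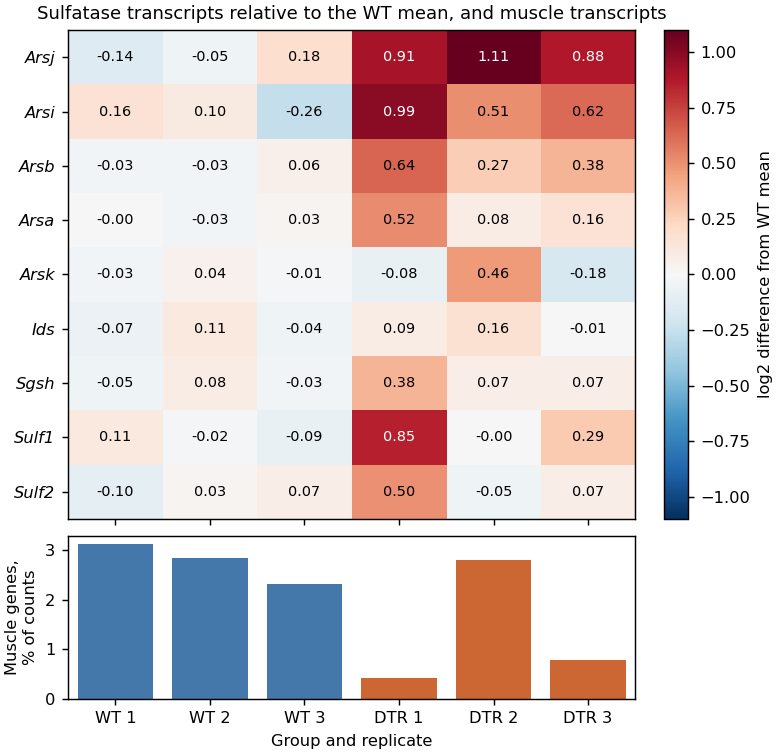
Log2 difference of each sulfatase from its WT mean in each library (top, colour and printed values) and the share of counts on 25 skeletal muscle genes (bottom, percent). DTR replicate 1 has the lowest muscle share, 0.414%, and the highest value of 6 genes, while *Arsj* is between 0.88 and 1.11 in all 3 DTR libraries.

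None of the other sulfatases and activators examined had a log2 fold change above that of *Arsa*. *Galns*, which removes sulfate from galactose and N-acetylgalactosamine residues, showed 1193, 1054 and 1078 normalized counts across the WT libraries and 1529, 1195 and 1258 across the DTR libraries. The groups were separated by a narrow margin (log2 fold change 0.26, SE 0.12, edgeR adjusted p = 0.464). *Arsg*, which acts on heparan sulfate glucosamine, had 600 to 672 normalized counts in WT and 640 to 739 in DTR tendons, so the groups overlapped (log2 fold change 0.11, SE 0.11, edgeR adjusted p = 0.712). *Sumf1*, whose product activates all sulfatases, had 3455 to 3622 normalized counts in WT and 3711 to 4270 in DTR tendons, without overlap and with a log2 fold change of 0.16 (SE 0.084, edgeR adjusted p = 0.513). *Sumf2*, a related gene without that activity, differed by 0.047 on the log2 scale (SE 0.12). Thus 0 of these 4 genes passed edgeR's test. *Sts* was not analysed here.

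Genes that break down the same chains or belong to the same organelle had list medians nearer to that of all tested genes. Of 14 tested genes of lysosomal and extracellular glycosaminoglycan breakdown, 9 were fitted higher and 5 lower, with a median log2 fold change of 0.082, where 9017 of all 17496 tested genes were fitted higher. *Hexa*, a hexosaminidase subunit, had the highest value at 0.29 and *Hpse2*, a heparanase relative without heparan sulfate cleavage, the lowest at -1.03, with 140 to 222 normalized counts in WT and 45.2 to 106 in DTR tendons. The 35 tested genes of a general lysosome list, which holds cathepsins, membrane proteins and regulators, had a median of 0.064 with 24 higher, between *Gaa* at 0.28 and *Tfeb* at -0.30. *Tfeb*, a regulator of lysosomal genes, showed 1249, 1260 and 1308 normalized counts across the WT libraries and 1032, 1194 and 878 across the DTR libraries, so that each DTR library was below each WT library. In none of these lists did a gene pass edgeR's adjusted p of 0.05, and DESeq2 called 0 of them, with 1 gene higher and 2 lower at an unadjusted p under 0.05 by edgeR, beside 5.52% and 5.45% of all tested genes. The 6 genes of sulfatide metabolism, the lipid that arylsulfatase A degrades, had a median of -0.55, but with a wide spread. *Galc* was the highest at 0.17 and *Fa2h*, a fatty acid hydroxylase, the lowest at -2.19, with 1606, 762 and 182 normalized counts across the WT libraries and 34, 83.2 and 440.8 across the DTR libraries. The libraries with the most *Fa2h* were WT replicates 1 and 2, which also held the most keratinocyte transcript (0.372% and 0.229% of counts), and the part of this in the *Fa2h* values was not tested. edgeR and DESeq2 called 0 of the 6 genes, and 1 gene was lower at an unadjusted p under 0.05 by edgeR.

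The genes that build the sulfated chains were described beside those that remove sulfate. Of 15 tested genes of chondroitin and dermatan sulfate synthesis and sulfation, 13 were fitted higher and 2 lower, with a median log2 fold change of 0.19, beside 9017 of 17496 tested genes fitted higher. Of the 15, 6 were without overlap in the higher and 1 in the lower direction, beside 8.96% and 7.85% of all tested genes. *Csgalnact1*, which starts chondroitin chains, showed 3163, 2988 and 2744 normalized counts across the WT libraries and 6482, 3541 and 3856 across the DTR libraries, and its log2 fold change of 0.64 (SE 0.24) was the highest. The lowest was that of *Chst3*, a chondroitin 6-O-sulfotransferase, at -0.52 (SE 0.18), with 269 to 314 normalized counts in WT and 172 to 217 in DTR tendons. At an unadjusted p under 0.05, edgeR placed 4 of the 15 higher and 1 lower, beside 5.52% and 5.45% of all tested genes, and at an adjusted p under 0.05 both edgeR and DESeq2 called 0. All 8 tested genes of sulfate supply were fitted higher, with a median of 0.17. Of these 8, 4 were without overlap in the higher and 0 in the lower direction, beside 8.96% and 7.85% of all tested genes. *Papss2*, which makes the activated sulfate donor and matters in cartilage growth, showed 1788, 1975 and 2207 normalized counts across the WT libraries and 2506, 2233 and 2678 across the DTR libraries, and its log2 fold change of 0.31 (SE 0.11, edgeR adjusted p = 0.403) was the highest of that list, with *Bpnt1* the lowest at 0.019. Neither edgeR nor DESeq2 called any of these 8 genes, and 2 were higher at an unadjusted p under 0.05 by edgeR.

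Heparan sulfate, the substrate of the endosulfatases, showed no common direction in its synthesis genes. The 15 tested genes had 8 values above and 7 below 0 and a median log2 fold change of 0.042. *Hs2st1*, the 2-O-sulfotransferase whose mark *Ids* removes, was the highest of those with at least 50 normalized counts at 0.30 (SE 0.15), and *Hs3st3b1*, a 3-O-sulfotransferase, the lowest at -0.90 (SE 0.28), with 127 to 157 normalized counts in WT and 52.6 to 92.8 in DTR tendons. The 12 tested core proteins that carry heparan sulfate had a median of 0.099, between *Col18a1* at 0.35 and *Gpc3* at -0.45. edgeR and DESeq2 called 0 genes of both lists. By edgeR 1 gene, lower, had an unadjusted p under 0.05, beside 5.52% higher and 5.45% lower of all tested genes. Without overlap were 2 synthesis genes in the higher and 1 in the lower direction, and 1 core protein gene, higher. The shares over all tested genes were 8.96% and 7.85%. These lists share the libraries of the comparison, so their medians are read only beside that of all tested genes.

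**Figure D5:**
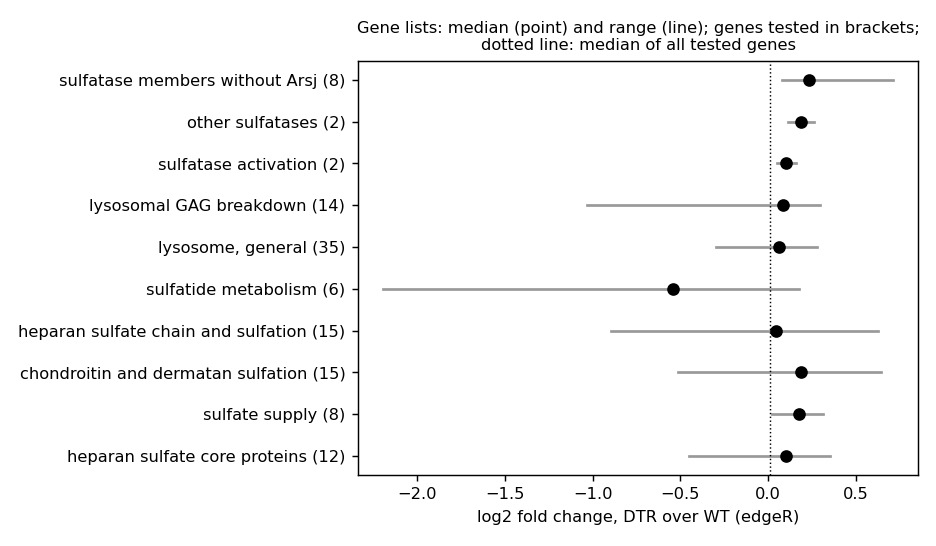
Median (point) and range (line) of the log2 fold change of DTR over WT for each gene list, with the number of tested genes in brackets and the median of all tested genes, 0.0082, as a dotted line. The sulfatases without *Arsj* have a median of 0.23, above those of the other lists drawn (tendon cell markers, not drawn, have 0.30), and the sulfatide list has the widest range.

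The pattern of *Arsj* over the 6 libraries was compared with that of each of 14272 other genes with at least 50 normalized counts, by the root-mean-square difference of log2 values centred on the mean of each gene. The closest was *P2ry10b*, a G protein-coupled receptor gene of the purinergic family, with a difference of 0.072, followed by *Itm2a* (0.099), a transmembrane protein gene, *Zfp808* (0.10), a zinc finger gene, *Ogn* (0.12), which encodes the small proteoglycan osteoglycin, and *Nkain1* (0.12). *Itm2a* had 6572 to 7350 normalized counts in WT and 11524 to 13686 in DTR tendons, and *Ogn* 17898 to 21186 and 28844 to 37225. For all 5 each DTR library was above each WT library, which the measure favours for a gene chosen in this way. Of the sulfatases, *Arsb* was the closest to *Arsj* with a difference of 0.32 and a rank of 293, and *Arsi* followed with 0.33 and a rank of 318.

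Promoter windows of 300 bases from RefSeq (GRCm38.p6), from 250 before to 50 after the annotated start, were matched for 7 of the 9 genes. The window of *Arsj*, shown because this gene had the largest fold change of the 9, lies at chr3:126363602-126363901 on the plus strand and is printed with E-boxes (CANNTG, a motif bound by basic helix-loop-helix factors, the class to which *Scx* belongs) in capitals.
Arsj: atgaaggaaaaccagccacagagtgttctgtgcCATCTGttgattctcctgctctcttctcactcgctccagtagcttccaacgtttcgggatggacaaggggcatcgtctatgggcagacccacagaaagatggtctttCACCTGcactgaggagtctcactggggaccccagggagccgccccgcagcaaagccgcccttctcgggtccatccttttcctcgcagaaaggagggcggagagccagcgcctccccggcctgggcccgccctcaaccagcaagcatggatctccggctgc

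It holds 2 E-boxes, which begin 217 and 110 bases before the RefSeq start, and 4 copies of GGGCGG, read on both strands. Of 32851 promoter windows, 72.3% and 35.7% hold at least 1 of each. In GENCODE vM21 *Arsj* begins at chr3:126363684, upstream of the RefSeq start and between the 2 E-boxes, so these positions depend on the annotation. Of the 8 windows of the sulfatases (*Sulf2* has 2), 7 hold an E-box, and the exception is *Ids*. The E-box variant CACGTG, the core of the element that TFEB binds in lysosomal genes, was in the windows of 2 sulfatases and in 7.15% of all windows. Both are shown as 60 bases with that motif in capitals, for *Arsa* from chr15:89477408-89477467 and for *Sgsh* from chr11:119355507-119355566, each read on the minus strand.
Arsa: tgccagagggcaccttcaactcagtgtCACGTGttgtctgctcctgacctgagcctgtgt
Sgsh: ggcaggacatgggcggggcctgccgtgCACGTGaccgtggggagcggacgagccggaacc

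CACGTG reads the same on both strands and is itself a case of CANNTG. It begins 16 bases before the RefSeq start of *Arsa* and 29 before that of *Sgsh*, whose log2 fold changes in DTR were 0.27 and 0.18. A match is a string of letters in these windows, and binding was not measured.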

How the data were processed

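The authors demultiplexed single-end reads with bcl2fastq 2.19.0, cleaned them with FastP 0.20.0 and counted them per gene with featureCounts of subread 1.6.4, and deposited whole-number counts without normalization. The aligner, genome build, annotation and strand setting are not given in the sources used here. A signal table of normalized counts was also deposited, and every column of it was found to equal the counts over 1 size factor (DESeq2 1.22.1, per the labels).

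Totals ranged from 42744138 to 48854310 counts per library, and n = 3 limits the precision. Counting error was not small beside the spread between tendons for every gene. The WT spread of *Arsa* (SD 45.3 at a mean of 1959 normalized counts) and *Arsk* (SD 33.5 at 1223) was close to the size of counting error. Replicate pairs differed far beyond sampling noise (chi-square per degree of freedom 36.6 or more), so none was a duplicate. Testing used edgeR 4.0.16 in R 4.3.3, with filterByExpr, TMM, robust quasi-likelihood fit with genotype as the single term, and Benjamini-Hochberg adjustment over 17496 genes at 0.05. The standard error was derived from the log2 fold change and its F statistic. The tests were first tested on simulated data. DESeq2 1.42.0, limma 3.58.1 (voom, and log2 of the deposited values plus 1), RLE and library size normalization, other filters, the replicate number as a block, a muscle covariate, removal of muscle genes and leaving out each library were alternatives. Exon lengths, taken from GENCODE vM21 by symbol, matched 97.6% of tested genes. Coding sequences were aligned globally (match 1, mismatch -1, gap opening -3, extension -0.5).

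Text names all 9 sulfatases, other sulfatases and the *Sumf* genes, the highest and lowest gene of each list of those averaging 50 normalized counts or more, and the 5 genes most like *Arsj*. *Scx*, *Tnmd*, *Xist* and overlapping genes are checks. A gene of the lists is not reported here. Members and lists were chosen with earlier results of these data known, and *Arsj* was chosen by its rise in DTR.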

Additional observations from a re-analysis of the deposited data

How the results depend on the processing

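The 9 sulfatases were recomputed under 16 other settings. The number of genes called in DTR against WT was 0 with edgeR and 466 with DESeq2, which called 2 of the 8 sulfatases other than *Arsj* (*Arsi* and *Arsb*, or 3 with *Arsj*, whose calls follow from its choice). It was 83 with no filter on low counts, with 0 of the 8 (1 with *Arsj*), and 1 with the replicate number as a block, with 0 sulfatases. With each library left out in turn the count ranged from 0 to 544. The median log2 fold change of the sulfatases ranged from 0.14 (without DTR replicate 1) to 0.35 (without DTR replicate 2). These medians, and that with the muscle covariate below, are over all 9 sulfatases, *Arsj* included. Only without DTR replicate 2 was any gene called, and *Arsb* was the only sulfatase called there besides *Arsj*. In that fit *Arsk* turned to -0.13 (it was at most 0.22 with another library left out), and with the muscle covariate the median was 0.14, *Sulf1* turned to -0.032 and *Sulf2* to -0.10, with the cause not tested. The other 6 sulfatases kept a positive value in all 16 settings, from 0.89 to 1.06 for *Arsj*, 0.50 to 0.81 for *Arsi* and 0.24 to 0.52 for *Arsb*. The labels do not say whether replicate numbers pair animals. Deviations of same-numbered libraries correlated at -0.25, -0.21 and -0.73 over genes, which cannot tell how the animals were matched. The block gave no sulfatase an edgeR adjusted p under 0.05.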
